A study of Bos taurus with 30 samples.

Results

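The miR-2284 and miR-2285 family was described in the arcuate nucleus (ARC) of the hypothalamus of 30 Holstein-Friesian bull calves. The family was taken as every row of the miRNA table whose name begins with bta-miR-2284 or bta-miR-2285, whatever its letter or arm. These were 148 of the 1030 mature miRNAs listed, 31 under the name miR-2284 and 117 under miR-2285. From 2 to 12 weeks of age, 15 HI calves were given 1.5 kg of milk replacer in 10 L per day with concentrates ad libitum, and 15 MOD calves 0.5 kg in 4 L per day with 0.5 kg of concentrates. Tissue was taken from every calf at 12 weeks, and each gave 1 small RNA library, so the replicate is the calf. The comparison asks whether the plane of nutrition in early life alters the miRNAs of the ARC.

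MicroRNAs are short RNAs that guide Argonaute proteins to messenger RNAs, mainly by pairing of a few bases near the 5′ end, called the seed, and so lower the stability or translation of their targets. Most miRNAs of the mammalian brain, such as the neuronal miR-124, are shared between distant species. The miR-2284 and miR-2285 genes are in contrast known from cattle and other ruminants, where they form one of the largest groups of miRNA genes, with many near-identical copies scattered through the genome. Their functions in the hypothalamus are largely not known.

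The family's genes are scattered, as RefSeq lists them on the ARS-UCD2.0 assembly. Of the 148 members, 140 matched 191 listed loci by symbol, with 115 members at a single locus and 25 at more than 1. The most copied were miR-2284y, miR-2284z and miR-2285n, each with 7 loci. Of the 191 loci, 125 (65.4%) lay within the span of a protein-coding gene, against 549 of 841 loci (65.3%) of all other listed miRNAs. Only 13 family loci (6.81%) had another miRNA gene within 10 kb, against 261 (31.0%) of the others. The single MIR2284X locus (gene identifier 100526413) lies inside TIAM1, a gene for an exchange factor of the small GTPase Rac, as does MIR2284I.

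Libraries held between 6291376 and 21083250 reads counted on miRNAs. There were 9 deeper libraries (3 HI and 6 MOD) with at least 17193358 reads and 21 shallower ones (12 HI and 9 MOD) with at most 8988039. Values have the form of CPM over library sizes scaled by factors such as those of TMM (a trimmed mean of ratios between libraries), so that the values of a library need not sum to the same total as those of another. On this scale 3 reads, taken here as the floor of detection, are worth 0.138 to 0.558 CPM depending on the library. Such floors cover counting error only. The 7 neuronal marker miRNAs were present in every library, with a summed level of 15868 to 95087 CPM. Marker miRNAs of smooth muscle summed to between 34665 and 315266 CPM, and those of the pituitary, described further on, to between 2289 and 100739 CPM. The libraries are of bulk tissue, so fewer cells of a type and less miRNA per cell cannot be told apart.

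Most rows of the family held reads in the ARC, but at low levels. Some rows hold the same reads, as described further on, so a row with reads need not show that its own member is present. All but 3 members had a value in at least 1 calf, and 79 had a value in every calf. The 3 others, miR-2285cb, miR-2285cg and miR-2285dm, were at 0 in every calf, which allows levels up to the floor of each library. At the floor, 55 members exceeded 3 reads in every calf, 68 did so in some calves and 25 in none. By mean level, 1 member exceeded 100 CPM, 16 lay between 10 and 100 CPM, 42 between 1 and 10 CPM and 86 under 1 CPM. A calf had a median of 87 members above 3 reads, with 99 to 117 in the deeper libraries and 74 to 97 in the shallower ones. The number of members seen in a calf thus moved with depth, whose part in it was not tested. The filter used for all tests, which asks for about 10 reads in at least 14 libraries, kept 54 of the 148 members (36.5%) and 422 of the 882 other miRNAs (47.8%). The 54 had a median level of 5.58 CPM, against 89.4 CPM for the other tested miRNAs.

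One member made up most of the family. MiR-2284x had 1442 ± 68.2 CPM (SD, n = 30), was backed by 7850 to 32154 reads per library, and ranked 73 of 476 tested miRNAs by level. In the HI calves its lowest, median and highest values were 1310, 1405 and 1578 CPM, and in the MOD calves 1329, 1458 and 1559 CPM, so that the groups overlapped nearly throughout. It was 60.8% to 72.6% of the family's summed level in a calf (68.0% ± 3.02, SD, n = 30), a share that does not depend on how libraries are scaled. The whole family summed to 1920 to 2402 CPM per calf, which is 0.168% to 0.251% of all counted miRNA reads. The sum was 2125 ± 129.6 CPM in the HI calves and 2119 ± 68.6 CPM in the MOD calves (SD, n = 15 each). The highest sum, 2402 CPM, was in HI replicate 7 (calf A37824), which had the lowest share of counted reads, 0.168%, so the order of the calves depends on the scaling.

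**Figure D1:**
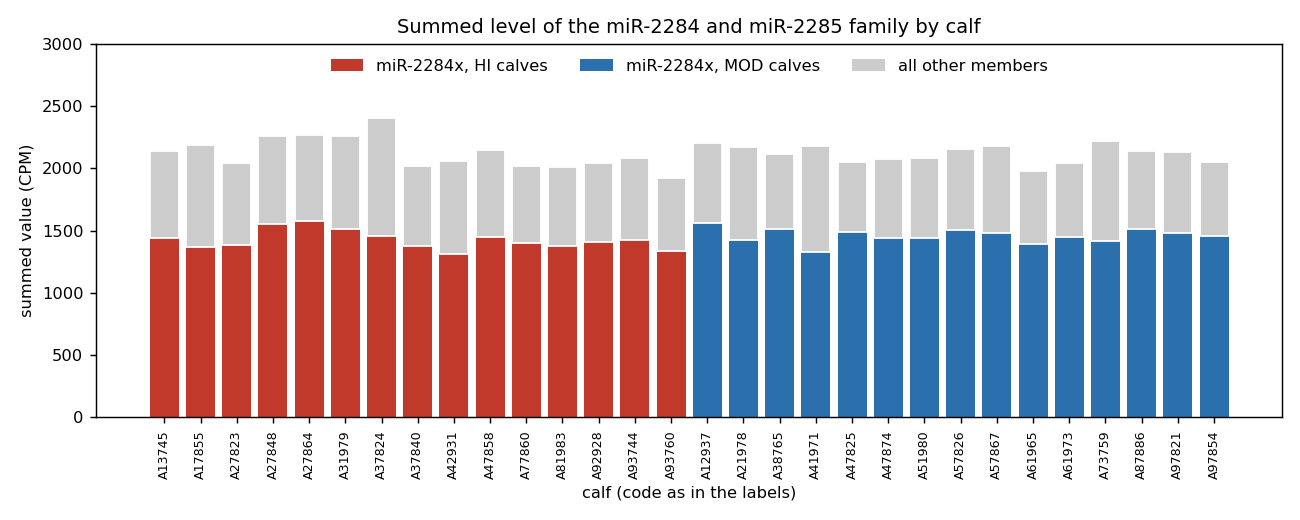
Summed level of the family in each calf in CPM (y axis) by calf code (x axis), with 15 HI and then 15 MOD calves. The coloured part is miR-2284x and the grey part all other members, and miR-2284x is between 60.8% and 72.6% of every bar.

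MiR-2284x also varied least. The SD of its log2 level over the 30 calves was 0.07, the smallest of the 476 tested miRNAs with the scaling of the deposited values, where the next steadiest had 0.10. With the size factors of DESeq2 the SD was 0.08 and again the smallest. With library size as the only scaling it was 0.22, and 39 miRNAs were steadier, with miR-140 the steadiest at 0.11.

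After miR-2284x, levels dropped by more than an order of magnitude. The next 9 members lay close together, from 32.3 to 46.9 CPM on average, namely miR-2285k, miR-2284y, miR-2285f, miR-2285ce, miR-2285av, miR-2284aa, miR-2285t, miR-2284z and miR-2285bn. The highest of these, miR-2285k, had 46.9 ± 13.6 CPM (SD, n = 30), and each step between neighbours in this order was smaller than the SD between calves of the higher one. Members with more than 1 locus had a median level of 2.24 CPM, against 0.429 CPM for members with 1 locus, yet the most abundant member has 1 locus. Where the table holds both arms of a precursor, they were unequal. MiR-2284h-5p had 20.2 ± 2.33 CPM (SD, n = 30), while miR-2284h-3p had a read in 1 calf only. The reads of miR-2284h-5p are shared with miR-2284y by the measure given next, so its own level is not known. MiR-2284t-3p had 2.24 ± 0.622 CPM against 0.482 ± 0.297 CPM for miR-2284t-5p, which was the higher arm in 1 of 30 calves.

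**Figure D2:**
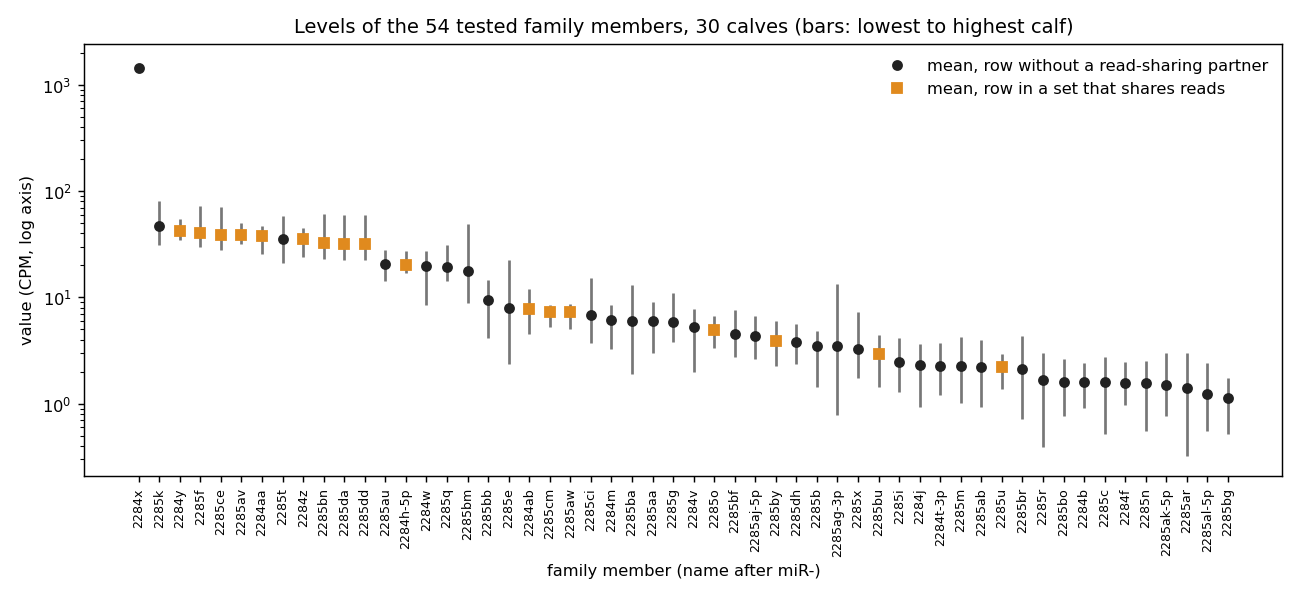
Mean level (points) and lowest to highest calf (bars) of the 54 tested members in CPM on a log axis, in order of the mean. Squares mark rows that share reads with another row, and miR-2284x at 1442 CPM stands apart from miR-2285k at 46.9 CPM and the rest.

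Several rows were not separate measurements. Where 2 miRNAs are counted from separate reads, the ratio of their reads varies between libraries at least as much as counting error does, and a chi-square per degree of freedom around a fixed ratio is near 1 or above. Rows that hold the same reads give a value below 1, near 0 where nearly all are shared, as seen for miR-124a and miR-124b. Among 59 members with at least 10 reads on average, 18 of 1711 pairs (1.05%) fell under 0.4. Of 26137 pairs of a member with another miRNA 0 did, and of 97903 pairs of 2 other miRNAs 7 did. The 18 pairs of members formed 7 sets that hold 18 rows, and the limit was chosen after seeing the data. Members with fewer reads were not examined. Where 1 row is far lower than the other, the value stays near 1 even if all its reads are shared. Members mostly lay lower than the other miRNAs, so the 0 cannot show an absence of sharing.

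Some sets join members of both names. MiR-2284y, miR-2285av and miR-2284h-5p formed one, in which miR-2285av was 0.905 to 0.928 times miR-2284y in every calf and miR-2284h-5p 0.465 to 0.499 times. The largest held miR-2285f, miR-2285ce, miR-2285bn, miR-2285da and miR-2285dd, with mean ratios to miR-2285f of 0.961, 0.804, 0.784 and 0.782. MiR-2284aa and miR-2284z formed the third, with a ratio of 0.938. The others were pairs, miR-2284ab with miR-2285by at 0.504 (0.500 to 0.515 over the calves) and miR-2285cm with miR-2285aw at 0.999 (0.927 to 1.11). The last 2 pairs were the least clear, on few reads. MiR-2285u was 0.360 to 0.591 times miR-2285o with a chi-square per degree of freedom of 0.248, and miR-2285as was 0.182 to 0.639 times miR-2285bu with 0.373, close to the limit. None of the 40 loci of these sets lay within 10 kb of another locus of its set. The summed level of the family counts such reads more than once. With each set counted once, miR-2284x was 71.5% to 80.5% of the sum, and 44 tested members remained. No row fell under the limit with miR-2284x. All other members were far lower, at 46.9 CPM or less on average, so sharing of their reads with it could not be seen by this measure.

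**Figure D3:**
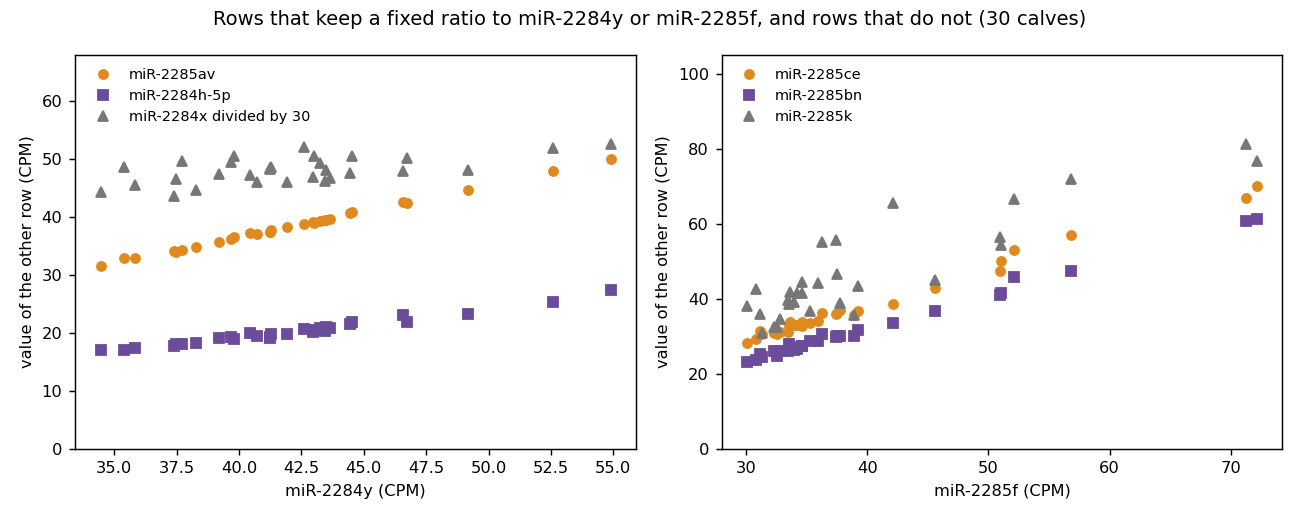
Levels in CPM of rows against miR-2284y (left) and miR-2285f (right), with 1 point per calf and row. MiR-2285av and miR-2284h-5p, and miR-2285ce and miR-2285bn, lie on straight lines, whereas miR-2284x (divided by 30) and miR-2285k scatter more.

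No member differed between the diets (limma, 0 of 54 members, where 0 of all 476 tested miRNAs, 0%, passed). A call asked for a fold change beyond 1.5 together with a Benjamini-Hochberg adjusted p below 0.1. At an unadjusted p under 0.05 there were 4 members, against 21 of all 476 (4.41%). The edgeR quasi-likelihood test and the DESeq2 Wald test on the recovered reads likewise called 0 members, with 4 members each at an unadjusted p under 0.05. The median log2 difference, HI minus MOD, was 0.06 over the members and 0.00 over all tested miRNAs, and 37 of the 54 members (68.5%) lay above 0 against 49.4% of all tested. With the DESeq2 size factors these medians were 0.07 and 0.01, and with library size only 0.02 and -0.04. The median over the members was 0.09 with read-sharing rows counted once and 0.02 with the animal code class as a term. The count of 37 takes read-sharing rows separately. For 49 of the 54 members (90.7%) the 95% interval of the difference lay within a 1.5-fold change in either direction, against 80.3% of all tested miRNAs. The 5 whose interval reached it were miR-2285al-5p, miR-2285ba, miR-2285bm, miR-2285e and miR-2285ag-3p.

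**Figure D4:**
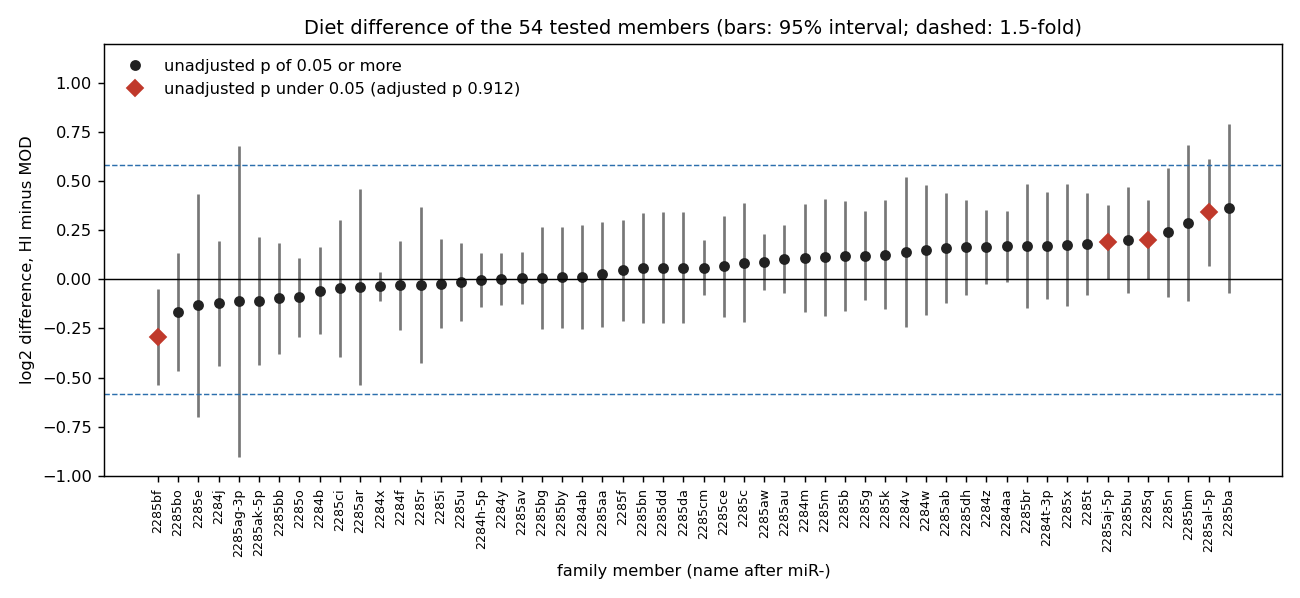
Log2 difference of HI minus MOD for the 54 tested members (points) with its 95% interval (bars), in order of size. Dashed lines mark a 1.5-fold change, and the 4 diamonds have an unadjusted p under 0.05 and an adjusted p of 0.912.

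MiR-2285al-5p had the smallest p of the family. Its lowest, median and highest values were 0.550, 1.41 and 2.40 CPM in the HI calves and 0.662, 1.01 and 1.46 CPM in the MOD calves. The HI values thus reached higher but covered the whole MOD range. Its log2 difference was 0.34 (SE 0.13, 95% interval 0.07 to 0.61; limma, p = 0.0156, adjusted p = 0.912), on 4 to 29 reads per library. A permutation test of the difference gave p = 0.0156. The difference was 0.43 in the shallower libraries (exact permutation test, p = 0.0228, n = 12 and 9) and 0.04 in the deeper ones (exact permutation test, p = 0.810, n = 3 and 6). The 9 calves with the lowest animal codes, 7 HI and 2 MOD, form a class that earlier results of these data set apart. The difference was 0.45 in that class (p = 0.111 by an exact permutation test) and 0.21 in the other 21 calves, 8 HI and 13 MOD (p = 0.223 by an exact permutation test).

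MiR-2285bf was the member with the lowest value in HI relative to MOD. It had 2.75, 3.88 and 6.26 CPM (lowest, median, highest) in the HI calves and 3.29, 5.16 and 7.68 CPM in the MOD calves. The MOD calves mostly lay higher, with 11 of 15 over the median of HI, while 2 of 15 HI calves were over the median of MOD. The log2 difference was -0.29 (SE 0.12, 95% interval -0.54 to -0.05; limma, p = 0.0202, adjusted p = 0.912). By animal code it was -0.09 in the 9 calves (exact permutation p = 0.778) and -0.33 in the 21 (exact permutation p = 0.0306).

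The other members by smallest p were higher in HI. MiR-2285aj-5p had a median of 4.52 CPM in HI (3.53 to 6.63) and 3.97 CPM in MOD (2.65 to 5.15), with a log2 difference of 0.19 (SE 0.09; limma, p = 0.0472, adjusted p = 0.912). MiR-2285q had a median of 19.9 CPM in HI (15.0 to 30.9) and 18.5 CPM in MOD (14.1 to 22.7), with a log2 difference of 0.20 (SE 0.10; limma, p = 0.0490, adjusted p = 0.912). MiR-2284aa, which shares its reads with miR-2284z, had a median of 39.6 CPM in HI (27.7 to 47.4) and 33.9 CPM in MOD (25.9 to 46.5), with a log2 difference of 0.17 (SE 0.09; limma, p = 0.0647, adjusted p = 0.912). In all 3 the groups overlapped, and the highest HI calf lay above every MOD calf. For miR-2285aj-5p the log2 difference was 0.12 in the 21 calves outside the low-code class (exact permutation p = 0.211) and 0.21 within it (exact permutation p = 0.333). For miR-2285q it was 0.09 with that class as a term, and 0.05 among the other 21 calves (exact permutation test, p = 0.598, n = 8 and 13). For miR-2284aa it was 0.20 among those 21 (exact permutation test, p = 0.0490) and -0.09 among the 9 (p = 0.833 by an exact permutation test, n = 7 and 2).

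MiR-2284x itself differed by -0.04 on the log2 scale (SE 0.04, 95% interval -0.11 to 0.04; limma, adjusted p = 0.982), an interval far narrower than a 1.5-fold change. The value was -0.06 with the animal code class as a term and -0.08 with library size only as the scaling. In the 21 calves outside the low-code class the difference of miR-2284x was -0.07 (exact permutation test, p = 0.00802, n = 8 and 13), with none of the 8 HI calves above the MOD median. That was the smallest p of 105 such tests, on 21 named members in 5 sets of calves. The value was -0.02 among the calves of the low-code class (p = 0.778 by an exact permutation test, n = 7 and 2). The family's summed level was 2217 ± 99.3 CPM (SD, n = 9) in the class of lowest codes and 2082 ± 73.5 CPM (SD, n = 21) in the others. As a share of counted reads the order was the reverse, 0.195% ± 0.0184 and 0.221% ± 0.0218. The part of the class in the diet values was not tested beyond the fit with the class as a term.

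Between the depth classes, with diet in the limma model, 0 of 54 members passed the same thresholds (0% of all 476). At an unadjusted p under 0.05 there were 4 members, against 24 of 476 (5.04%). These were miR-2284ab and miR-2285by, which share reads and were higher in the deeper libraries, and miR-2284m and miR-2285x, which were lower there. The edgeR test called 0 members, with 7 at an unadjusted p under 0.05 (30 of all 476), and DESeq2 0, with 6 (31 of all 476).

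Many members varied between calves by little more than counting error. The SD of the log2 level had a median of 0.37 in the 54 members and of 0.37 in the other tested miRNAs, although counting error alone gives a median SD of 0.21 in the members and 0.055 in the others. In 26 of the 54 the SD was under 1.5 times that of counting error. The most variable members lay well above it. MiR-2285ag-3p, from a locus inside RYR2, a calcium release channel gene, had an SD of 1.09 (counting error 0.36) and ranged from 0.784 to 13.2 CPM. It lay above 5 CPM in 7 calves, 4 HI and 3 MOD, at 5.37 CPM or more, and at 3.36 CPM or less in the other 23. MiR-2285e (SD 0.78, 2.36 to 22.7 CPM), miR-2285ar (0.68, 0.323 to 3.01 CPM), miR-2285ba (0.61, median 5.64 CPM in HI and 4.79 CPM in MOD) and miR-2285bm (0.56, 8.80 to 48.9 CPM) followed.

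Pairs of members had a median r near 0. After removal of the diet means, the median Pearson r over all 1431 pairs of tested members was 0.06 (Spearman 0.06), with 6.43% of pairs above 0.5, and over the 44 members with each read-sharing set counted once it was 0.05, with 4.33% above 0.5. Over the pairs of other tested miRNAs it was 0.02, with 15.5% above 0.5. Below -0.5 were 2.24% of the pairs of members and 13.9% of the pairs of others. Counting error, which lowers r, was larger in the members, but its part in these values was not tested. The median over the 37 members with at least 10 reads in every calf was 0.12. These values are descriptions over 30 calves that share library depth and scaling. With library size only as the scaling the median over members was 0.14.

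With each read-sharing set counted once, the most alike pairs all came from a few members of the miR-2285 name. Rows at unlike levels, such as miR-2285f and miR-2285ci, could share reads unseen by the measure. The highest r was between miR-2285f and miR-2285ci (Pearson 0.92, Spearman 0.66, n = 30), followed by miR-2285f with miR-2285k (0.87 and 0.82), miR-2285f with miR-2285g (0.84 and 0.84), miR-2285ci with miR-2285k (0.82 and 0.61) and miR-2285f with miR-2285q (0.79 and 0.70). The libraries however fell into separate groups by a score of pituitary miRNAs, so these values were also taken within each group.

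The pituitary gland lies just below the ARC and its cells are rich in miR-7, miR-375 and the miR-200 family. Of the 10 miRNAs on the pituitary list, 8 passed the filter, and their mean log2 level was the score. The largest gap in the score left 9 calves (5 HI and 4 MOD) at 8.35 to 12.1 and 21 calves (10 HI and 11 MOD) at 3.73 to 6.43. The summed level of the whole list was 10003 to 100739 CPM in the 9 and 2289 to 7130 CPM in the 21, and miR-200b and miR-96 were at 0 in at least 1 calf. Of the other marker lists, those of neurons and oligodendrocytes moved with this split. Those of ependyma, erythroid cells, leukocytes and endothelium had ranges that overlapped over most of their length. The smooth muscle list reached 315266 CPM in the 9 and 185520 CPM in the 21. The neuronal list summed to 15868 to 65542 CPM in the 9 and 52317 to 95087 CPM in the 21, and the oligodendrocyte list to 1254 to 3885 CPM in the 9 and 1910 to 11332 CPM in the 21. The part of these cell types in the values of the members was not tested. The groups were defined from the data and are set side by side here as ranges, with no test between them.

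Some members were higher where the score was high. MiR-2285f had 34.2, 51.1 and 72.2 CPM (lowest, median, highest) in the 9 calves and 30.1, 33.9 and 39.2 CPM in the 21. MiR-2285ci had 5.73, 10.5 and 15.1 CPM in the 9 and 3.71, 5.54 and 6.39 CPM in the 21. MiR-2285bm, from a locus inside the nuclear receptor gene ESRRG, had 8.80, 27.4 and 48.9 CPM in the 9 and 10.2, 13.1 and 18.7 CPM in the 21. Of the 9 calves, 8 lay above the highest of the 21 for miR-2285f, 8 for miR-2285ci, 7 for miR-2285g, and 6 each for miR-2285bm and miR-2285k. At least 5 of the 9 did so for 9 of the 54 members (16.7%), 5 of which are the set led by miR-2285f, and for 57 of all 468 tested miRNAs outside the list (12.2%). At least 5 of the 9 lay below the lowest of the 21 for 0 members and for 51 of the 468 (10.9%). The median over the members was 1 calf above. MiR-2284y was lower, with 34.4, 39.2 and 44.5 CPM in the 9 and 37.5, 43.0 and 54.9 CPM in the 21. MiR-2284x was at 1310 to 1514 CPM in the 9 and 1340 to 1578 CPM in the 21, so the ranges overlapped over most of their length.

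Within the 9 calves alone, limma with diet in the model found 10 of 54 members to change with the score at an adjusted p under 0.1, against 133 of 468 miRNAs tested outside the list (28.4%). Of these 8 rose, against 57 of 468 (12.2%), and 2 fell, against 76 of 468 (16.2%). Those that rose were miR-2285bm, miR-2285ba, miR-2285ci and the 5 rows of the read-sharing set led by miR-2285f, and those that fell were miR-2285t and miR-2284j. MiR-2285bm had the steepest slope, 0.56 on the log2 scale per unit of score (SE 0.06; limma, adjusted p = 0.000711), and miR-2285t had -0.22 (SE 0.07; limma, adjusted p = 0.0495). The count depended on which calves were included. Without HI replicate 7 there was 1 member called, against 23 of 468 miRNAs, and with the 2 calves of most distant score removed 13 members rose and 2 fell, where 98 of 468 miRNAs rose and 131 fell (48.9% called). With library size only as the scaling the median slope of all miRNAs moved to -0.13 and 1 member was called, against 22 of 468 miRNAs.

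Within the 21 calves with low scores, 0 of 54 members changed with the score (limma, adjusted p under 0.1, where 0 of 468, 0%, did), with 3 members at an unadjusted p under 0.05 against 37 of 468 miRNAs. The 5 pairs, picked as the most alike over all 30 calves, had lower r there than in the 9. Between miR-2285f and miR-2285ci the Pearson r was 0.97 in the 9 calves and 0.08 in the 21, whereas for miR-2285f with miR-2285k it was 0.82 and 0.50, and with miR-2285g 0.85 and 0.56. For miR-2285ci with miR-2285k it was 0.78 and 0.18, and for miR-2285f with miR-2285q 0.85 and 0.31. Over all pairs of tested members, 4.26% exceeded 0.5 in the 21 calves and 15.5% in the 9. Over pairs of other tested miRNAs 8.85% and 24.4% did. Below -0.5 were 1.54% of the pairs of members in the 21 and 12.5% in the 9, and 7.66% and 21.4% of the others. The median r over members was 0.07 in the 21 and -0.002 in the 9. An r over 9 calves scatters more than an r over 21, so these shares cannot compare the groups. The difference in r between the groups of calves was not tested.

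**Figure D5:**
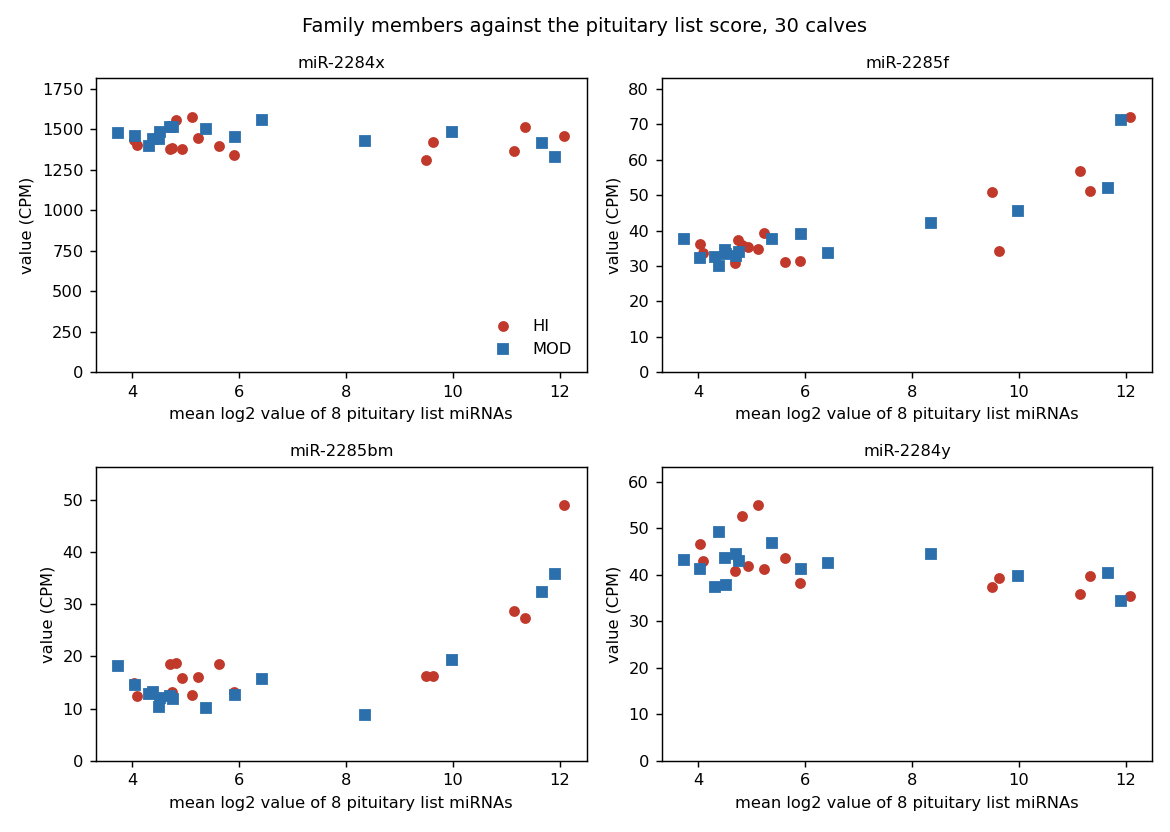
Level in CPM (y axes, from 0) of miR-2284x, miR-2285f, miR-2285bm and miR-2284y against the mean log2 level of 8 pituitary list miRNAs (x axes), 1 point per calf (circles HI, squares MOD). MiR-2285f and miR-2285bm reach 72.2 and 48.9 CPM in the calves with high scores, while miR-2284x stays between 1310 and 1578 CPM.

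Outside the family, the miRNAs whose levels were most like its summed level were miR-99b (Pearson r 0.73, Spearman 0.71), miR-192 (0.72 and 0.66), let-7i (0.72 and 0.70), miR-25 (0.71 and 0.67) and let-7f (0.70 and 0.64), all over 30 calves after removal of the diet means. The least alike were miR-33a (-0.79 and -0.75), miR-1249 (-0.76 and -0.78), miR-150 (-0.76 and -0.74), miR-326 (-0.73 and -0.68) and miR-551b (-0.73 and -0.71). They are descriptions of likeness in libraries that share one scaling.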

How the data were processed

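Small RNA libraries of the ARC were made from 30 calves, 1 library per calf. The authors trimmed the reads (Cutadapt), discarded those from other short RNAs, and quantified known mature miRNAs of cattle using the miRDeep2 package with the ARS-UCD1.2 genome. How reads that match several miRNAs were counted is not given in the sources used here. The deposited signal values are decimals with the form of CPM over TMM-scaled library sizes. Their total per library lay between 825695 and 1429908. Dividing by the worth of 1 read in a library recovered whole reads, to within 0.1 read, for 94.5% to 97.9% of the values under 200 reads, and depth was 6291376 to 21083250 reads.

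The filter was edgeR's filterByExpr on the recovered reads (476 miRNAs kept), and the test was limma (lmFit, eBayes with a trend) on log2(value + 0.25) with Benjamini-Hochberg adjustment over all miRNAs tested, with calls at the thresholds of the study, an adjusted p below 0.1 together with a fold change beyond 1.5. A fold change on this scale understates the change of low miRNAs. The count tests of edgeR and DESeq2 on the recovered reads, rounded, were alternatives. A single member was also compared by a two-sided permutation test with 100000 resamples, or an exact one within a class of calves. The code was tested on simulated data.

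The members, lists and classes of calves were chosen with earlier results of these data known. Members were named by highest mean (10), smallest diet p (5), largest SD (5) and most alike pairs (5), with the 5 most and the 5 least like miRNAs outside the family. Members called for the score or at an unadjusted p under 0.05 in the depth comparison, those at 0 throughout, those with both arms or sharing reads, and those with an interval beyond 1.5-fold are named beside these, after their values were seen. Grouping by seed had been planned but was not done, since no mature sequences were used here. Marker lists for ependyma, oligodendrocytes, erythroid cells, leukocytes, endothelium and liver were also summed, with median sums of 31186, 2447, 29058, 1526, 19107 and 0.207 CPM. RefSeq gene positions (ARS-UCD2.0) served for gene names and neighbours only. The tools were limma 3.58.1, DESeq2 1.42.0 and edgeR 4.0.16 under R 4.3.3, and scipy 1.17.1 under Python 3.11.15.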

Additional observations from a re-analysis of the deposited data

How the results depend on the processing

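No member was called between the diets or between the depth classes under any alternative run (other scaling, pseudocounts, filters, count tests, terms for depth, animal code or pituitary score, a calf left out, repeated rows once), although DESeq2 called 1 of all 476 miRNAs for diet, not a member. Members at an unadjusted p under 0.05 for diet numbered 2 with depth class as a term and 1 with the class of lowest animal codes as a term (16 and 10 of all 476), against 4 as reported (21 of 476). For depth they numbered 7 with edgeR and 2 with the animal code class as a term (30 of all 476 in each), against 4 (24 of 476). Of 287 values of the diet difference of the 21 named members under 14 alternatives, 19 changed sign, in 9 members, none of which had been called. With the score within the 9 calves, rising members numbered 1 with library size only (12 of all 468 miRNAs rose), 4 with read-sharing rows counted once (53 of 458), 13 after removal of the 2 calves farthest from the median score (98 of 468) and 1 without the HI calf highest in miR-375 (15 of 468), against 8 (57 of 468). Falling members numbered 0 with library size only (10 of 468) and 0 without that calf (8 of 468), against 2 (76 of 468). The causes were not tested, except that counting sets once leaves fewer rows. These alternatives for the score and the sets of shared reads were chosen after seeing the data. A calf had a median of 54.5 members with at least 10 reads, against 87 above 3 reads. The median pairwise r lay between 0.01 with no filter and 0.14 with library size only. The log2 difference of the summed level between the diets lay between -0.04 and 0.01. Depth limits members at a few CPM, which rest on few reads. No paired analysis was made, because each calf received 1 diet and the labels name no pairs of calves across the diets. The authors balanced the diets over farms of origin and sires, which were not used here.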
